A study of Mus musculus with 103 samples.

Results

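The 3 embryonic globin genes Hba-x, Hbb-y and Hbb-bh1 and the red cell genes Alas2, Klf1 and Slc4a1 were followed through a laser-capture atlas of the early mouse face. The members were chosen by the gene symbol that the array platform gives them, and each had 1 probe set, so that they make up 6 of the 19938 genes measured. The atlas used wild-type outbred CD1 embryos, with no allele or treatment named in the labels, of stages E8.5 (embryonic day), E9.5 and E10.5. Captures were cut from frozen sections, their RNA was amplified, and each library was read on 1 Affymetrix whole-transcript array. The labels place 102 of the 103 samples in 22 groups of 4 to 7 libraries.

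The E8.5 groups (18 libraries) were mesenchyme and the caudal, floor plate and non-floor plate neural epithelium. The E9.5 groups (34 libraries) were cranial mesenchyme, maxillary arch and mandibular arch as mesenchymal regions, and epidermal ectoderm, neuroepithelium and otic vesicle as epithelia. The E10.5 groups (50 libraries) were lateral nasal eminence, medial nasal prominence, maxillary arch and mandibular arch, ectoderm of the maxillary and of the mandibular arch, olfactory pit, Rathke's pouch, and neuroepithelium at the midline, under the lateral nasal prominence, under the medial nasal prominence and from a control area. No label says which embryo a library came from, so libraries of 1 group may share an embryo, and p-values may then be too small. None of the groups was sorted for blood cells, and which of the captured cells held these transcripts was not measured. In such captures, fewer cells of a type and less RNA per cell cannot be told apart.

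The primitive erythroid lineage is the earliest blood lineage of the mouse embryo. Its cells arise in the blood islands of the yolk sac, enter the circulation once the heart beats, and mature while circulating. They make embryonic globin chains, and definitive red cells from the fetal liver follow later. Hba-x encodes the zeta chain, the embryonic alpha-like globin, and Hbb-y and Hbb-bh1 encode the embryonic beta-like chains. Alas2 is the red cell form of aminolevulinate synthase, which opens haem synthesis. Klf1 is a zinc finger transcription factor that activates globin and other red cell genes through CACCC elements. Slc4a1 encodes band 3, the anion exchanger and a main membrane protein of the red cell.

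The promoter windows of 4 members are shown because the results turn on which members moved together. Each runs from 250 bases before to 50 bases after the annotated start (RefSeq, GRCm38.p6), on the strand of the gene. Capitals mark CCACCC, the core of a CACCC element, or GATAA, the core that GATA factors bind, on either strand, so that GGGTGG and TTATC are matches on the opposite strand. The Hba-x window is chr11:32276350-32276649 on the plus strand, the Hbb-y window chr7:103853158-103853457 on the minus strand, the Alas2 window chrX:150547167-150547466 on the plus strand and the Klf1 window chr8:84901732-84902031 on the plus strand.
Hba-x: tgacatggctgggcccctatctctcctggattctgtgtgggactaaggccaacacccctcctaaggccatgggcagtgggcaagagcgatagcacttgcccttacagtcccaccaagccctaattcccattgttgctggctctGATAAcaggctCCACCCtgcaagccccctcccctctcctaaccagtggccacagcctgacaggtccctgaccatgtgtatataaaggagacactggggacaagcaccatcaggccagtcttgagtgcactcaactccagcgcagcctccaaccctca
Hbb-y: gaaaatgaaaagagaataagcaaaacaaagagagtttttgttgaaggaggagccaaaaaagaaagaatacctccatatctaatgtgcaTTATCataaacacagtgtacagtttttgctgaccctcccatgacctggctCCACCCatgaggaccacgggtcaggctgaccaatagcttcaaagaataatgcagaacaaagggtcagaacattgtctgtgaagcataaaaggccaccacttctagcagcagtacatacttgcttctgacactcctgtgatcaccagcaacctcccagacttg
Alas2: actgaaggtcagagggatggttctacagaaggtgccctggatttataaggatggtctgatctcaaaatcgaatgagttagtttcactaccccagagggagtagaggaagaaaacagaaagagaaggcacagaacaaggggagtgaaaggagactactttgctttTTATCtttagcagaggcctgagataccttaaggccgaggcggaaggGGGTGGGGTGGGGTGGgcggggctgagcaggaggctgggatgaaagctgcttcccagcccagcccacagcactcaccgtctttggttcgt
Klf1: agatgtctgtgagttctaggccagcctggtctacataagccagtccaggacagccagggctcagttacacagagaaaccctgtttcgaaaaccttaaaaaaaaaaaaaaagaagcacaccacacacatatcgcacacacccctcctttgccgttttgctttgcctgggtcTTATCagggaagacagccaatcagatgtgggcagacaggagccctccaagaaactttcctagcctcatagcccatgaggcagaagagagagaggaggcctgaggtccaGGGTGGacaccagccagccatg
CCACCC was found in 4 of the 4 windows and in 31.5% of all 32851 windows of this length. GATAA was found in 4 of 4, and in 25.4% of all windows. CCAAT was found in 2 of 4, Hbb-y and Klf1 (37.4% of all windows), and TATAAA in 2 of 4, Hba-x and Alas2 (13.6%). TATAAA lay 28 bases before the start on the same strand in Hba-x, but 209 bases before it on the opposite strand in Alas2. CCACCC lay 96 bases before the start in Hba-x and 112 bases before it in Hbb-y. In Alas2 there were 3 overlapping matches on the opposite strand, 40, 35 and 30 bases before the start, and in Klf1 the match lay 28 bases after the start. The GATAA match lay 107 bases before the start in Hba-x, 162 in Hbb-y, 86 in Alas2 and 80 in Klf1. These are matches of letters and no measured binding sites.

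Values are the log2 of a linear ratio that the authors deposited, which compares libraries for 1 gene but gives no level between genes. The smallest ratio in the table is 0.01, a log2 of -6.64, and 19 of the 62 values at this floor belonged to Hbb-y (10) and Hbb-bh1 (9) in E8.5 libraries. These values are upper limits, and no fold is given for those 2 genes against or within E8.5. Differences were tested in limma over all 102 libraries and 19938 genes, with Benjamini-Hochberg adjustment and a threshold of 0.05, and adjusted p-values below are from that fit unless another is named. Errors of differences are standard errors. Some labels and markers did not match at E10.5. Libraries labelled mandibular arch ectoderm had 1.76 to 2.66 for Twist1, a mesenchymal gene, and -0.94 to 0.74 for Epcam, an epithelial gene, while libraries labelled mandibular arch had -1.17 to 2.00 for Epcam and maxillary arch -1.44 to 3.59. The mandibular groups were kept out of the E10.5 comparison of mesenchymal regions with epithelia, and the maxillary arch was kept in.

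The 3 globins were low at E8.5 and near the baseline at both later stages. Hba-x ran from -6.56 to -0.44 at E8.5 (median -6.05), from -3.29 to 0.55 at E9.5 (median 0.07) and from -0.52 to 0.46 at E10.5 (median 0.11). Hbb-y had a median of -6.64 at E8.5, 0.08 at E9.5 and 0.16 at E10.5. Hbb-bh1 had a median of -6.60 at E8.5, 0.06 at E9.5 and 0.44 at E10.5. Globin values overlapped between E8.5 and E9.5 because of a few libraries at either stage, which are named below. Alas2 and Klf1 did not follow this course. Alas2 had a median of -0.19 at E8.5, 0.24 at E9.5 and 0.46 at E10.5, with a highest value of 4.27 in an E9.5 maxillary arch library. Klf1 had a median of -1.11 at E8.5, 0.11 at E9.5 and -0.28 at E10.5, with a highest value of 3.35 in E9.5 cranial mesenchyme. Slc4a1 stayed between -0.37 and 1.10 in all libraries.

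**Figure D1:**
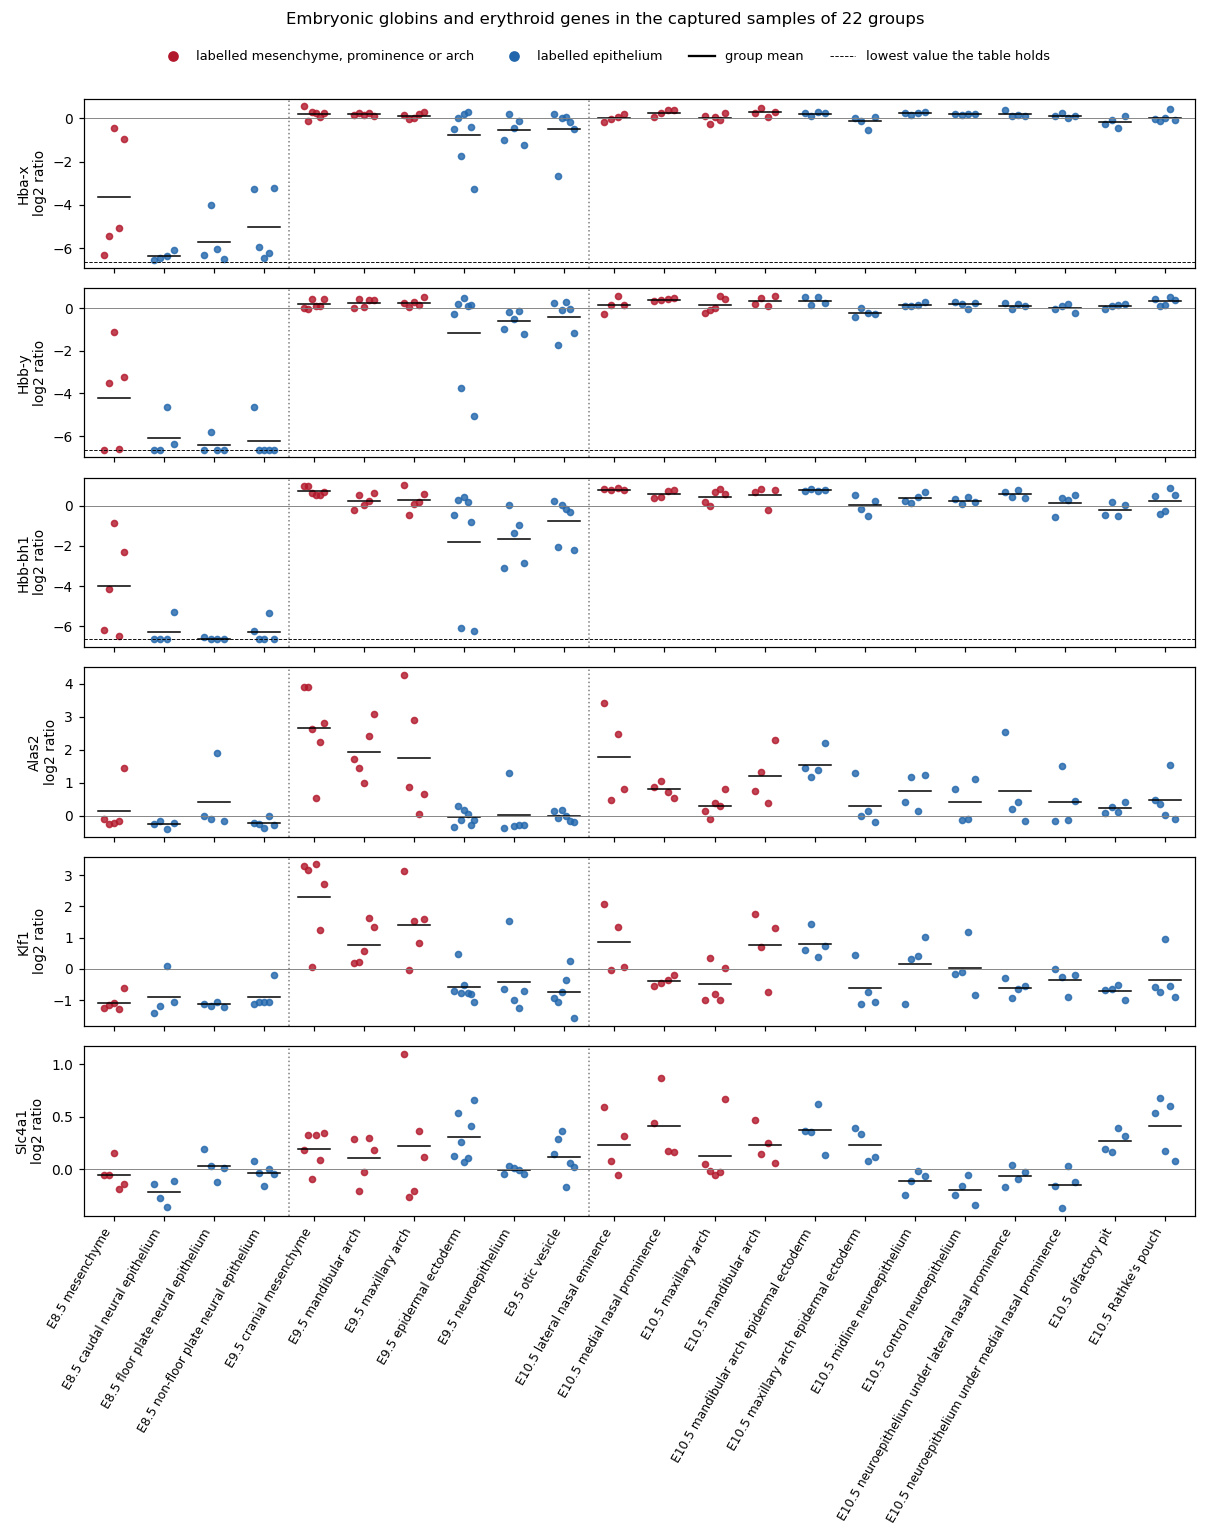
Log2 of the deposited ratio (vertical axis, 1 panel per gene) in every library of the 22 groups, ordered by stage, with mesenchymal regions and arches in red before the epithelia in blue; bars are group means and the dashed line is the floor of the table. Globin values lie near the floor in most E8.5 libraries and near 0 later, while Alas2 and Klf1 reach their highest values, 4.27 and 3.35, in E9.5 mesenchymal regions.

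The spread between libraries of 1 group was narrowest at E10.5 for the globins. The SD within groups, pooled over the groups of a stage, was 1.78 at E8.5, 0.80 at E9.5 and 0.16 at E10.5 for Hba-x. It was 1.45, 1.13 and 0.20 for Hbb-y, and 1.37, 1.57 and 0.35 for Hbb-bh1 at the same stages. The floor limits the E8.5 spread of Hbb-y and Hbb-bh1, with 10 and 9 of 18 libraries at it. Alas2 (0.61, 0.96 and 0.74) and Klf1 (0.40, 0.95 and 0.69) varied most at E9.5. A fit that pools the spread of all groups therefore rates globin differences within E8.5 against too small an error and those within E10.5 against too large a one.

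Ordered by mean, no group of the 22 was set apart from its neighbour in rank for any member. Of the 21 pairs of neighbours in that order, 0 differed by more than the sum of their SDs, and 0 had libraries that did not overlap, for each of the 6 genes. Groups further apart in rank were not compared in this way. For all 3 globins the E8.5 groups had the lowest means. Group means of Hba-x were -3.65 or lower at E8.5 and -0.78 or higher later. The widest gap for Hba-x (2.87) lay between E9.5 epidermal ectoderm and E8.5 mesenchyme. The highest group was E10.5 mandibular arch for Hba-x (0.27 ± 0.16, SD, n = 4), E10.5 medial nasal prominence for Hbb-y (0.41 ± 0.06, SD, n = 4) and E10.5 lateral nasal eminence for Hbb-bh1 (0.80 ± 0.06, SD, n = 4). E9.5 cranial mesenchyme was highest for Alas2 (2.67 ± 1.25, SD, n = 6) and for Klf1 (2.30 ± 1.36, SD, n = 6). E10.5 Rathke's pouch was highest for Slc4a1 (0.41 ± 0.27, SD, n = 5).

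At E8.5 the question was whether mesenchyme and neural epithelium differed in blood-borne transcripts. All 3 globins had higher means in mesenchyme than in the 3 neural epithelia, while Alas2, Klf1 and Slc4a1 did not pass the test. Hba-x was at -6.33, -5.44, -0.44, -5.07 and -0.98 in mesenchyme replicates 1 to 5. It was at -6.56, -6.44, -6.37 and -6.07 in the caudal, -6.31, -4.02, -6.03 and -6.50 in the floor plate and -3.28, -5.94, -6.47, -6.24 and -3.24 in the non-floor plate epithelium. Replicates 3 and 5 of mesenchyme stood above every neural library, and the other mesenchyme libraries lay among them. The difference was 2.05 ± 0.47 (4.14-fold, adjusted p = 0.00274).

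Hbb-y was at -6.64, -3.50, -1.12, -6.63 and -3.21 in mesenchyme replicates 1 to 5. In the neural epithelia it lay at the floor in 9 of 13 libraries, and the others had -4.63, -4.65, -5.80 and -6.35. Hbb-bh1 was at -6.16, -4.13, -0.84, -6.49 and -2.33 in the same mesenchyme libraries, against a range of -6.64 to -5.29 in the neural libraries, 9 of which were at the floor. Replicates 2, 3 and 5 of mesenchyme were above all neural libraries for both genes, and replicates 1 and 4 were not. Adjusted p-values were 0.00419 for Hbb-y and 0.00579 for Hbb-bh1, computed with floor values as they stand. Thus 3 of 6 members were called higher, where 2.4% of all genes were called in either direction and 1.65% as higher. The median difference, also with floor values as they stand, was 1.10 over the members and -0.02 over all genes.

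The calls rested on mesenchyme replicates 3 and 5. Without replicate 3, 0 members were called (Hba-x 1.25, adjusted p = 0.201), without replicate 5 only Hbb-y was, and a fit of these 4 groups alone called 0 (Hba-x adjusted p = 0.46). Alas2 and Klf1 did not go with the globins in replicate 3. That library, the richest in globin, had -0.22 for Alas2 and -1.10 for Klf1, beside -0.11, -0.24 and -0.17 for Alas2 and -1.27, -1.15 and -1.28 for Klf1 in replicates 1, 2 and 4. Replicate 5, also rich in globin, had 1.44 for Alas2 and -0.62 for Klf1, both the highest of the 5. The mean differences were 0.17 for Alas2, -0.11 for Klf1 and 0.02 for Slc4a1, each with an adjusted p of 1.

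Other genes of the red cell were mostly not called at E8.5. Of 12 erythroid regulators, 1 was higher in mesenchyme, Lmo2 (2.63 ± 0.52, 6.21-fold, adjusted p = 0.000296, all mesenchyme libraries above all neural ones), a partner of Tal1 in blood and in endothelium. Of 10 genes of haem synthesis and iron supply and 12 of the red cell membrane and cytosol, 0 were called, with medians of 0.05 and 0.03 beside a median of -0.02 over all genes. Endothelial genes differed more widely: 12 of 14 were higher, with a median of 1.17. Emcn, a sialomucin of venous and capillary endothelium, was 25.5-fold higher (4.67, adjusted p = 4.78e-06) and Cldn5, a tight junction claudin, 23-fold (4.52, adjusted p = 4.63e-12), with all mesenchyme libraries above all neural ones for both.

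The mean over the 14 endothelial genes was 1.26, 1.37, 1.12, 1.87 and 1.91 in mesenchyme replicates 1 to 5, and -0.38 to 0.02 in the neural libraries. The globin-rich replicates 3 and 5 were thus the lowest and the highest of the mesenchyme for endothelium. With that mean as a covariate, chosen after the data were seen, 1 member was called, Alas2, which turned to -2.25 (adjusted p = 0.0248). Hba-x was then at 1.57 (adjusted p = 0.181). Over all genes 1518 were called with the covariate, against 478 without it. The covariate did not overlap between mesenchyme and neural libraries, so its share and that of the tissue are poorly told apart. Without the covariate, none of 13 macrophage genes and 1 of 5 megakaryocyte and platelet genes, Itga2b, the alpha chain of a platelet integrin (1.58-fold, adjusted p = 0.0133), was called. The part of the captured vessels in the globin difference was not tested further.

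At E9.5, Alas2, Klf1, Hbb-bh1 and Hbb-y were higher in cranial mesenchyme and the arches than in ectoderm, neuroepithelium and otic vesicle. These were 4 of 6 members, where 14.2% of all genes were called and 9.36% as higher. The median difference was 1.38 over the members and 0.02 over all genes. Alas2 was at 3.91, 3.89, 2.63, 0.52, 2.24 and 2.81 in cranial mesenchyme replicates 1 to 6. It was at 4.27, 0.86, 2.90, 0.06 and 0.67 in maxillary arch and at 1.72, 1.44, 1.00, 2.42 and 3.07 in mandibular arch, whose replicates are numbered 2 to 6. In the 18 epithelial libraries its lowest, median and highest values were -0.36, -0.13 and 1.30, and the highest was neuroepithelium replicate 2. That library lay above maxillary replicates 2, 4 and 5, cranial replicate 4 and mandibular replicate 4. Maxillary replicate 4 also lay below some ectoderm libraries (up to 0.30) and some otic vesicle libraries (up to 0.18). The difference was 2.14 ± 0.27 (4.4-fold, adjusted p = 8.99e-09).

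Klf1 was at 3.31, 3.16, 0.05, 3.35, 1.24 and 2.72 in cranial mesenchyme, 3.14, -0.03, 1.52, 0.82 and 1.61 in maxillary arch and 0.17, 0.21, 0.56, 1.63 and 1.33 in mandibular arch. The epithelia had a lowest value of -1.59, a median of -0.75 and a highest value of 1.55, again in neuroepithelium replicate 2. Klf1 and Alas2 did not rank the cranial libraries alike: replicate 4 was highest for Klf1 and lowest for Alas2, and replicate 3 was lowest for Klf1. The difference was 2.08 ± 0.26 (4.23-fold, adjusted p = 3e-09), with groups that overlapped.

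The globin differences at E9.5 came from low values in some epithelial libraries. Hbb-bh1 lay between -0.46 and 1.00 in the 16 mesenchymal libraries (median 0.53), against -6.25, -0.66 and 0.44 as the lowest, median and highest of the 18 epithelial ones. By group, it was at -0.49, 0.27, -6.07, 0.44, 0.17, -0.84 and -6.25 in ectoderm, -3.11, 0.03, -1.36, -0.99 and -2.87 in neuroepithelium and 0.24, -2.08, 0.05, -0.17, -0.32 and -2.19 in otic vesicle. Ectoderm replicates 3 and 7 were as low as E8.5 neural libraries, while the other ectoderm libraries lay among the mesenchymal ones or just below. The difference was 1.81 ± 0.38 (3.52-fold, adjusted p = 0.000493).

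Hbb-y lay between -0.05 and 0.52 in mesenchymal libraries, against -5.06, -0.17 and 0.49 as the lowest, median and highest of the epithelial ones, a difference of 0.96 ± 0.31 (1.94-fold, adjusted p = 0.0298). The groups overlapped, and the call was lost when ectoderm replicate 3 was left out (0.81, adjusted p = 0.0517), or likewise replicate 7 (0.74, adjusted p = 0.0647), neuroepithelium replicate 5 (adjusted p = 0.0505) or otic vesicle replicate 2 (adjusted p = 0.0574), and in a fit of the 6 E9.5 groups alone (adjusted p = 0.105). Hba-x lay between -0.12 and 0.55 in mesenchymal libraries and between -3.29 and 0.31 in epithelial ones. Its difference of 0.78 ± 0.31 did not pass (adjusted p = 0.0708), though it did by a narrow margin without ectoderm replicate 4 or 5 or otic vesicle replicate 4 (adjusted p = 0.0498 to 0.0499). Slc4a1 differed by 0.03 ± 0.08 (adjusted p = 0.779).

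**Figure D2:**
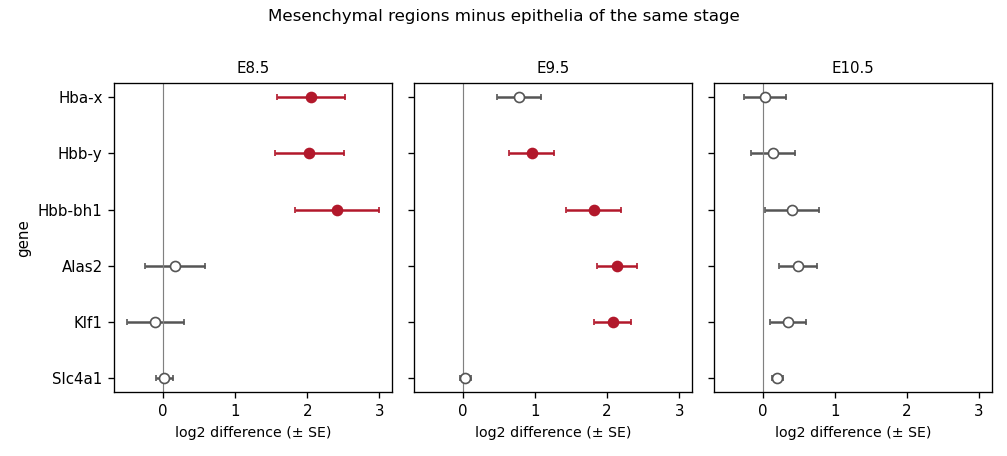
Difference in mean log2 ratio, mesenchymal regions minus epithelia, with its standard error, for the 6 genes by stage (E8.5, E9.5 or E10.5); filled red points passed an adjusted p of 0.05. The globins passed at E8.5, Hbb-y, Hbb-bh1, Alas2 and Klf1 at E9.5, where Alas2 and Klf1 were at 2.14 and 2.08, and none at E10.5. The E8.5 points of Hbb-y and Hbb-bh1 were computed with floor values as they stand and give no measured size.

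Some red cell genes outside the 6 members were called in E9.5 mesenchymal regions, and most were not. Of 12 erythroid regulators, 5 were higher and 1 lower. Lmo2 was 3.5-fold higher (1.81, adjusted p = 7.78e-05), Nfe2, a regulator of globin genes and platelet formation, was higher by 1.11 (adjusted p = 0.00617) and Gata1, the GATA factor of red cell precursors, by 0.96 (adjusted p = 0.000126). Of 10 haem and iron genes, 5 were higher and 0 lower, with a median of 0.64 beside 0.02 over all genes. They included Fech, which puts iron into the haem ring (1.06, adjusted p = 0.00808), Ppox, which oxidises its precursor (1.03, adjusted p = 0.00404), and Slc25a37, the mitochondrial iron importer mitoferrin (0.83, adjusted p = 0.000306). Of 12 membrane and cytosol genes, 5 were higher, among them the Rh blood group genes Rhd (1.01, adjusted p = 0.00698) and Rhag (0.88, adjusted p = 0.00763).

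Most endothelial genes and some platelet genes were called higher in the same regions. Of 14 endothelial genes, 12 were higher (median 1.07), with Emcn at 10.2-fold and Cldn5 at 8.71-fold. The mean over the 14 genes ran from 0.40 to 1.77 in mesenchymal libraries and from -0.31 to 0.49 in epithelial ones. Of 5 megakaryocyte and platelet genes 3 were higher, with Pf4, a platelet chemokine, at 9.1-fold (3.19, adjusted p = 5.09e-07), as were 2 of 13 macrophage genes, Fcer1g and Lyz2. With the endothelial mean as a covariate, 0 members were called: Klf1 was at 1.30 (adjusted p = 0.303), Hbb-bh1 at 1.44 (adjusted p = 0.502) and Alas2 at 0.36 (adjusted p = 0.832). With the same covariate 34 genes in all were called, against 2833 without it. Because ratios hold no level, whether a marker was absent could not be read.

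Across the 34 E9.5 libraries, which share stage and baseline, Alas2 and the endothelial mean had a Pearson r of 0.79, Klf1 0.66 and Hbb-bh1 0.52. Across the 50 E10.5 libraries the values were 0.60, 0.53 and 0.45. The mean over 10 mesenchymal genes had 0.76 with Alas2, 0.70 with Klf1 and 0.56 with Hbb-bh1 at E9.5. At E10.5 it had 0.41, 0.40 and 0.39. A link to vessels was thus not told apart from one to mesenchyme. Among the members, Alas2 and Klf1 had an r of 0.80 at E9.5, 0.57 at E10.5, but 0.05 across the 18 E8.5 libraries. The 3 globins had 0.75 to 0.88 with each other at E8.5, 0.87 to 0.94 at E9.5 and 0.45 to 0.61 at E10.5. These are descriptions of libraries that fall into regions, not tests.

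**Figure D3:**
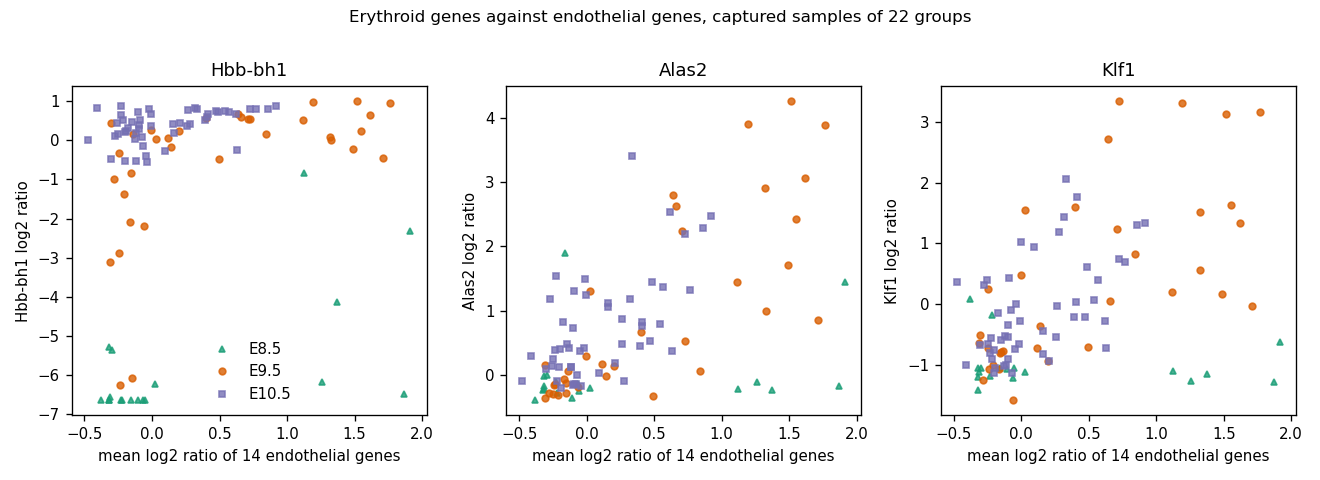
Log2 ratio of Hbb-bh1, Alas2 and Klf1 (vertical axes) against the mean log2 ratio of 14 endothelial genes (horizontal axes) in each library, coloured by stage. The highest E9.5 values of Alas2 and Klf1 (4.27 and 3.35) lie among libraries with endothelial means of 0.64 to 1.77, and some E8.5 mesenchyme libraries with endothelial means over 1 lie near the floor for Hbb-bh1.

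At E10.5, 0 of 6 members passed between mesenchymal regions (nasal and maxillary, 13 libraries) and epithelia (29 libraries), where 10.6% of all genes did. Slc4a1 had the lowest p of the 6 in limma (0.20 ± 0.08, adjusted p = 0.0663), and passed after adjustment in quantile-normalized values (adjusted p = 0.014). It passed too without any 1 of 5 libraries, lateral nasal replicate 3, medial nasal replicate 3 or 4, maxillary replicate 3 or Rathke's pouch replicate 2 (adjusted p = 0.0302 to 0.0493). The maxillary arch was kept in as labelled, despite its Epcam values given above. Without it, a setting chosen after the data were seen, Slc4a1 passed (0.27, adjusted p = 0.0377) and the other members did not (adjusted p = 0.0787 for Alas2, the lowest of them). The median difference of the 6 members was 0.28, beside -0.03 over all genes. Hba-x ran from -0.25 to 0.37 in mesenchymal regions and from -0.52 to 0.42 in epithelia. Hbb-bh1 ran from 0.00 to 0.87 in mesenchymal regions (median 0.72) and from -0.56 to 0.87 in epithelia (median 0.28). That difference of 0.41 ± 0.37 did not pass (adjusted p = 0.503), but did in a fit of these groups alone (adjusted p = 0.0266), where the error comes from the narrower E10.5 spread. Alas2 had -0.10, 0.73 and 3.41 as lowest, median and highest in mesenchymal regions and -0.20, 0.25 and 2.53 in epithelia, a difference of 0.49 ± 0.27 (adjusted p = 0.225). Klf1 differed by 0.35 (adjusted p = 0.367).

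Lateral nasal eminence held the highest values of both genes at this stage. Its replicates 1 to 4 had 3.41, 0.47, 2.47 and 0.79 for Alas2 and 2.07, -0.03, 1.34 and 0.07 for Klf1, so that replicates 1 and 3 were high for both. Medial nasal prominence was lower and more even, at 0.53 to 1.05 for Alas2 and -0.54 to -0.21 for Klf1. The library group labelled mandibular arch ectoderm, whose markers were mesenchymal, had 1.45, 1.18, 1.37 and 2.20 for Alas2, and mandibular arch had 0.76, 1.33, 0.38 and 2.29. Between those 2 groups as labelled, 0 members passed (0.135% of all genes did), with differences of -0.36 to 0.05. The lowest unadjusted p was 0.374 (limma), for Slc4a1.

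Of 12 erythroid regulators, 2 were higher in E10.5 mesenchymal regions, Nfe2 (0.93, adjusted p = 0.0225) and Tal1 (0.43, adjusted p = 0.00163), the bHLH factor of early blood. Of 12 membrane and cytosol genes, 2 were, Icam4, an adhesion molecule of red cell precursors (1.07, adjusted p = 0.015), and Kel, a blood group endopeptidase (0.42, adjusted p = 0.0133). Of 10 haem and iron genes, 0 were called. Endothelial genes were higher for 3 of 14, and Pf4 was 9.95-fold higher (3.31, adjusted p = 1.19e-07).

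Slc4a1 was the member that varied least between stages and regions, with group means from -0.22 to 0.41. Among the 12 E10.5 regions it differed (limma F test, adjusted p = 0.00102), as did Klf1 (adjusted p = 0.0314). These 2 of 6 members are near the share over all genes, of which 34.1% differed. The means of Slc4a1 lay from -0.20 to -0.07 in the 4 neuroepithelial groups and from 0.12 to 0.41 in the 8 others. Klf1 lost its call in that test without any 1 of 5 libraries, lateral nasal replicate 1 or 3, mandibular arch replicate 1 or 4, or mandibular arch ectoderm replicate 2 (adjusted p = 0.0549 to 0.0725). The globins had an adjusted p of 1 in that test, but passed when the E10.5 groups were fitted alone (adjusted p = 0.0172 to 0.03). Among the 6 E9.5 regions Klf1 (adjusted p = 1.34e-08), Alas2 (adjusted p = 2.86e-07) and Hbb-bh1 (adjusted p = 0.00425) differed, where 17.7% of all genes did. Among the 4 E8.5 regions the 3 globins differed (adjusted p = 0.00525 to 0.033), where 4.25% did, and 0 members did without mesenchyme replicate 3 or without replicate 5, and 1 without replicate 2.

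The comparison of E9.5 with E8.5 asked how the members changed with stage in neural tissue and in mesenchyme. In both, the 3 globins were far higher at E9.5, and in mesenchyme Klf1 and Alas2 were too. Hba-x was at -1.02, 0.21, -0.43, -0.12 and -1.24 in E9.5 neuroepithelium, against -3.28, -5.94, -6.47, -6.24 and -3.24 in E8.5 non-floor plate epithelium. All later libraries were above all earlier ones, and the difference was 4.51 ± 0.56 (22.8-fold, adjusted p = 6.97e-09). Hbb-y and Hbb-bh1 were also higher in every E9.5 library, with adjusted p-values of 5.14e-12 and 2.88e-06. Hbb-y was at -1.20 to -0.15 in E9.5 neuroepithelium, while 4 of the 5 E8.5 libraries were at the floor. Of the members, 3 were called higher, where 1.06% of all genes were called and 0.401% as higher, while Alas2 (0.23, adjusted p = 0.999), Klf1 (0.49, adjusted p = 0.983) and Slc4a1 (0.02) did not pass.

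In cranial mesenchyme against E8.5 mesenchyme, 5 of 6 members were higher, where 1.53% of all genes were called and 0.381% as higher. Hba-x was at 0.55, -0.12, 0.28, 0.27, 0.06 and 0.25 in E9.5 libraries, all above the 5 at E8.5 given above, by 3.87 ± 0.54 (14.6-fold, adjusted p = 2.4e-07). Hbb-y was at -0.05 to 0.45 and Hbb-bh1 at 0.53 to 0.96 in the E9.5 libraries, also above every E8.5 library (adjusted p = 9.22e-09 and 5.57e-07). Even the globin-rich E8.5 replicate 3, at -1.12 for Hbb-y and -0.84 for Hbb-bh1, lay below them. Klf1 was at -1.27, -1.15, -1.10, -1.28 and -0.62 at E8.5, below all E9.5 libraries, and differed by 3.39 ± 0.45 (adjusted p = 9.38e-08). Alas2 was at -0.11, -0.24, -0.22, -0.17 and 1.44 at E8.5 and differed by 2.53 ± 0.48 (5.76-fold, adjusted p = 0.000443). Its groups overlapped through E8.5 replicate 5 and E9.5 replicate 4.

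A fit of these 2 groups alone called 0 of the 6 (Klf1 adjusted p = 0.0517, Hba-x adjusted p = 0.196), with the same differences and 5 and 6 libraries to set the error. With replicate number added to that fit as a block, 5 genes in all were called, against 305 in the fit of all groups. Of 12 regulators, 3 were higher at E9.5: Nfe2 (3.89-fold, adjusted p = 0.0228), Gata1 (2.64-fold, adjusted p = 0.00752, all later libraries above) and Gfi1b, a repressor needed for red cells and platelets (0.79, adjusted p = 0.00799). None of the haem or membrane genes was called. Endothelial genes did not rise: 0 of 14 were higher and 1 was lower, Eng, a co-receptor of the TGF-beta family (-1.24, adjusted p = 0.00675), with a list median of -0.34. Of 5 megakaryocyte and platelet genes 2 were higher, Pf4 at 16.1-fold and Gp9 at 2.54 on the log2 scale. In the neural comparison 0 genes of the regulator, haem, membrane, endothelial, macrophage and platelet lists were called.

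**Figure D4:**
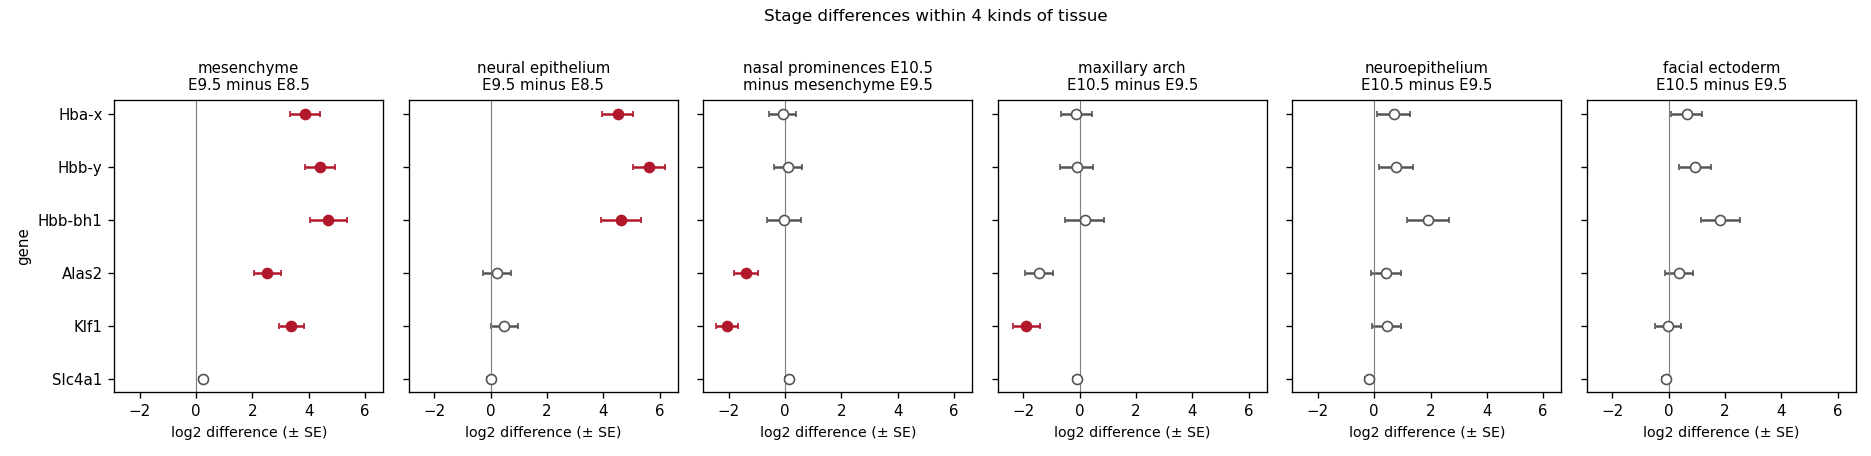
Difference in mean log2 ratio between stages, later minus earlier, with its standard error (horizontal axes), for the 6 genes in 6 pairs of groups; filled red points passed an adjusted p of 0.05. E9.5 over E8.5 shows the globins to the right in mesenchyme and neural epithelium, and Klf1 at 3.39 in mesenchyme, while E10.5 over E9.5 shows Klf1 at -2.06 and -1.90 in nasal prominences and maxillary arch. Points of Hbb-y and Hbb-bh1 against E8.5 were computed with floor values as they stand and give no measured size.

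Over the mean of both tissues, 5 of 6 members were higher at E9.5, where 3.1% of all genes were called and 0.697% as higher. Alas2 was at 1.38 (adjusted p = 0.0119), Klf1 at 1.94 (adjusted p = 3.1e-05) and Slc4a1 at 0.14 (adjusted p = 0.514). The stage change of Klf1 was larger in mesenchyme than in neural tissue by 2.90 ± 0.65 (adjusted p = 0.0126), 1 of 6 members where 0.366% of all genes passed and 0.1% in that direction. Alas2 had 2.29 ± 0.70 (adjusted p = 0.177), which passed without cranial mesenchyme replicate 4 (2.72, adjusted p = 0.036). Hba-x had -0.64, and each of the 3 globins an adjusted p of 1. No size is given for Hbb-y and Hbb-bh1, most of whose E8.5 neural libraries were at the floor. The difference for Klf1 did not pass in a fit of the 4 groups alone (adjusted p = 0.349).

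From E9.5 to E10.5, Klf1 was lower in mesenchymal regions and the globins did not pass. These comparisons use the E9.5 libraries of the comparisons above. Nasal prominences and cranial mesenchyme are different regions, so stage and region cannot be told apart in that pair. In nasal prominences (lateral and medial, 8 libraries) Klf1 had -0.54, -0.12 and 2.07 as lowest, median and highest, against 0.05, 2.94 and 3.35 in E9.5 cranial mesenchyme. It was lower by a difference of -2.06 ± 0.40 (4.18-fold, adjusted p = 0.00134). Alas2 had 0.47, 0.83 and 3.41 in nasal prominences, against 0.52, 2.72 and 3.91 in cranial mesenchyme, a difference of -1.38 ± 0.43 (2.6-fold, adjusted p = 0.0495). The groups overlapped for both, and the Alas2 call was lost when any 1 of 10 of the 14 libraries was left out. Of the members, 2 were called lower, where 3.96% of all genes were called and 3.26% as lower. In a fit of those groups alone neither was (adjusted p = 0.125 for Klf1 and 0.253 for Alas2). With replicate number added to that fit as a block, 1 gene in all was called, against 790 in the fit of all groups.

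In the nasal comparison Gata1 was lower (-1.15, adjusted p = 0.0143) and Bcl11a, a repressor of embryonic and fetal globin genes that developing neurons also express, was higher (1.65, adjusted p = 0.0148), the 2 of 12 regulators called. Car2, a carbonic anhydrase, was lower (-2.51, adjusted p = 0.0496), as 1 of 12 membrane and cytosol genes. None of the 10 haem and iron genes was called, though their median was -0.81 beside -0.04 over all genes. Endothelial genes were lower for 3 of 14, with Cldn5 at -1.62 (adjusted p = 0.036), and the endothelial mean ran from -0.10 to 0.92 in nasal prominences and from 0.64 to 1.77 in cranial mesenchyme. With that mean as a covariate Klf1 was at -1.70 (adjusted p = 0.0703) and Alas2 at -0.54 (adjusted p = 0.803).

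In maxillary arch Klf1 was at -1.01, 0.36, -0.81, -1.0 and 0.03 at E10.5, against 3.14, -0.03, 1.52, 0.82 and 1.61 at E9.5. It differed by -1.90 ± 0.47 (3.72-fold, adjusted p = 0.00831), and the groups overlapped through E9.5 replicate 2. Alas2 was at 0.13, -0.10, 0.38, 0.29 and 0.82 at E10.5, against 4.27, 0.86, 2.90, 0.06 and 0.67 at E9.5, a difference of -1.45 ± 0.50 (adjusted p = 0.0544). Klf1 was the 1 member called of 6, where 8.56% of all genes were called and 6.88% as lower. Without E9.5 replicate 1, which was highest for both genes, Klf1 was at -1.46 (adjusted p = 0.0768) and 0 members were called. Without E9.5 replicate 4 or replicate 5, Alas2 passed too (-1.87 and -1.72, adjusted p = 0.00969 and 0.021).

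Some haem genes and most endothelial genes were called lower in the same maxillary comparison. Of 10 haem and iron genes 3 were lower, Ppox (-1.54), Alad, which joins the precursor molecules made by Alas2 (-1.33), and Slc25a37 (-0.92), with a list median of -0.89 beside -0.05 over all genes. Of 12 membrane and cytosol genes, 2 were lower, Car2 (-3.10) and Rhag (-1.37). Of 12 regulators, Lmo2 was lower (-2.17, adjusted p = 0.0197, all later libraries below) and Bcl11a was higher (1.70, adjusted p = 0.022). Of 14 endothelial genes 11 were lower, with Cldn5 at -3.20 (9.18-fold) and Emcn at -2.96. The endothelial mean ran from -0.48 to 0.41 in E10.5 maxillary arch and from 0.40 to 1.71 in E9.5 maxillary arch, and the epithelial gene Epcam was higher at E10.5 (2.51, adjusted p = 0.0195). Whether the captured tissue, its vessels or the stage accounts for the lower Klf1 was not tested. With the endothelial mean as a covariate Klf1 was at -1.08 (adjusted p = 1). With that covariate 0 genes in all were called, against 1707 without it.

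In neuroepithelium and in facial ectoderm, 0 members were called between E10.5 and E9.5, where 0.426% and 0.361% of all genes were. Of the 6 members, Hbb-bh1 had the lowest unadjusted p in each (limma, 0.012 and 0.00973). In neuroepithelium it was at 0.31, 0.07, 0.42 and 0.18 at E10.5, all above the 5 E9.5 libraries given above, a difference of 1.91 ± 0.74 (adjusted p = 0.547). In ectoderm it was at 0.51, -0.15, -0.54 and 0.22 at E10.5, a difference of 1.84 (adjusted p = 0.276) with groups that overlapped. Over the mean of the 4 tissue pairs, Klf1 was lower by a difference of -0.89 ± 0.23 (1.85-fold, adjusted p = 0.00953), the 1 member of 6 where 8.25% of all genes were called and 6.84% as lower. Hbb-bh1 was at 0.97 ± 0.34 (adjusted p = 0.0607), and passed without any 1 of 5 libraries, E9.5 ectoderm replicate 1, 2, 4 or 5 or neuroepithelium replicate 2 (adjusted p = 0.036 to 0.0487). Alas2 was at -0.51 (adjusted p = 0.176). Bcl11a was higher over the same mean (1.75, adjusted p = 1.12e-06), while 3 of 10 haem genes and 4 of 14 endothelial genes were lower.

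Adult globin genes could not be tested, because their probe sets carry several gene symbols, but their values can be described. The 2 adult alpha probe sets had medians of -3.49 and -3.48 at E8.5, -0.05 and -0.09 at E9.5 and 0.10 and 0.11 at E10.5. The 2 adult beta probe sets had medians of -1.61 and -1.70 at E8.5, -0.54 and -0.32 at E9.5 and 0.79 and 0.92 at E10.5. No library was at the floor for these probe sets, and the beta ones kept a wide range at E10.5, from -2.22 to 2.06 and from -1.94 to 2.09. They may share probes with one another and with the embryonic genes of the same cluster.

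The genes most like the members were sought by the Pearson correlation, over the 102 libraries, of each gene with the mean of the 6 members, each scaled over the libraries. The 8 nearest were Acp5 (0.66), Gfi1b (0.63), Hemgn (0.61), Ssbp4 (0.61), Robo4 (0.61), Kcnn4 (0.60), 1300017J02Rik (0.60) and Elk3 (0.57). Of these, 4 were also among the nearest 8 by Spearman correlation, and 1, Kcnn4, among those found in E9.5 and E10.5 libraries alone (84), so that the list leaned on the step from E8.5. For single members, each globin was nearest to another globin (0.94 to 0.97 among the 3). Alas2 was nearest to Klf1 (0.73) and Klf1 had 0.71 with 6030468B19Rik. Slc4a1 had 0.78 with Cygb and 0.72 with Aqp3, and -0.23 to 0.31 with the other members at E9.5. By Spearman correlation over the same libraries, Alas2 was nearest to Hbb-bh1 (0.72), ahead of Klf1 (0.66). Klf1 then had 0.65 with Hbb-bh1, and the globins had 0.78 with each other. All points share libraries, stage and baseline.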

How the data were processed

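The labels' protocols name cryosections of flash-frozen CD1 embryos, laser capture on an Arcturus Veritas, RNA purification with the ZR RNA MicroPrep kit (Zymo), NuGEN Ovation Pico WTA amplification and biotin labelling. RMA and build mm9 are named, without versions, per the submitters' processing notes. The authors deposited a linear ratio for each probe set in each sample. In that table each probe set had a median of 1, within 6e-08, over 1 set of 21 samples, which was taken as the baseline, and the smallest ratio was 0.01. No depth, background or detection call was used, and only the number of arrays sets the precision.

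Of 35557 probe sets, 28856 had values and 21789 of those had 1 gene symbol in the platform annotation. For 999 genes with several, the one of highest mean log2 ratio was taken. An E9.5 sample with conflicting labels was left out, and 4 E10.5 neuroepithelium samples whose title says lateral and other labels medial were grouped as medial. Since the values proved to be ratios, which hold no level, their log2 took the place of the log2 levels that the design had foreseen, and no filter on dim genes was applied.

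Means of 22 groups were fitted over 102 samples in limma 3.58.1 (R 4.3.3; 80 residual degrees of freedom) with eBayes and Benjamini-Hochberg adjustment over 19938 genes, a step tested on simulated data. Members and gene lists were chosen with earlier results of these data known. Lists were regulators (12 of 12 genes measured), haem and iron (10 of 11), membrane and cytosol (12 of 16), endothelium (14 of 14), macrophage (13 of 13), and megakaryocyte and platelet (5 of 8). Mesenchymal, surface epithelial and neural lists served to check labels, and the mesenchymal one also for correlations. Genes named from a list are among the called ones with the largest differences, up to 3 of a red cell list and 2 of another. No label says that replicate numbers pair the samples, and no comparison had every pair of equal numbers correlated over 0.1. The median of such pairs ran from -0.054 in the nasal comparison to 0.219 in maxillary arch. In maxillary arch 4 of 5 pairs were over 0.1, and pairs of other numbers had a median of -0.096. Partial pairing was therefore not excluded. Arrays of E10.5 mandibular arch ectoderm replicates 1 and 3 were the closest pair (SD of their difference 0.21, next pair 0.33), with 0 genes identical. Alternatives are described under the dependence on processing. Promoter windows were read from a RefSeq table (GRCm38.p6).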

Additional observations from a re-analysis of the deposited data

Results flagged for a closer look

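In each group of 4 to 7 libraries and for each of the 6 genes, 132 sets in all, the highest and lowest library were compared with the rest by Dixon's criterion, which chance meets in about 1 in 20 sets. It was met in 18. Among E8.5 libraries, Hbb-y stood apart at -4.63 in caudal replicate 3 (others -6.64 to -6.35), at -5.80 in floor plate replicate 2 and at -4.65 in non-floor plate replicate 1 (others all at the floor). Hbb-bh1 stood apart at -5.29 in caudal replicate 4 and at -6.55 in floor plate replicate 1, again with all others at the floor, so that these 4 sets show only that 1 library was measurable. Alas2 was high at 1.90 in floor plate replicate 3 (others -0.15 to -0.02) and at 1.44 in mesenchyme replicate 5 (others -0.24 to -0.11). Klf1 was high at -0.62 in that same mesenchyme library and at -0.18 in non-floor plate replicate 5 (others -1.12 to -1.06).

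At E9.5, neuroepithelium replicate 2 was high for both Alas2 (1.30, others -0.36 to -0.28) and Klf1 (1.55, others -1.25 to -0.63). Klf1 was also high at 0.48 in ectoderm replicate 2 (others -1.07 to -0.51), and Hba-x was low at -2.68 in otic vesicle replicate 2 (others -0.47 to 0.19). At E10.5, Hba-x was high at 0.38 in neuroepithelium under the lateral nasal prominence replicate 1 and at 0.42 in Rathke's pouch replicate 4. Hbb-bh1 was low at -0.24 in mandibular arch replicate 3 (others 0.67 to 0.80). Klf1 was high at 0.95 in Rathke's pouch replicate 3 (others -0.91 to -0.56), and Slc4a1 at 0.67 in maxillary arch replicate 5 (others -0.06 to 0.05).

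The stage change of Klf1 from E8.5 differed between tissues: it was larger in mesenchyme than in neural tissue by 2.90 on the log2 scale (limma, adjusted p = 0.0126).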

How the results depend on the processing

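Counts of members called were recomputed under 20 other settings and with each library left out in turn. Of 290 counts under the other settings, 222 stayed within 1.5 times the count reported and 68 did not. Of 1708 values of single members under those settings, 1572 stayed called in the same direction or stayed uncalled. Another 105 lost the call, 30 gained it and 1 turned: Alas2 in E8.5 mesenchyme, at 0.17 as reported and -2.25 with the endothelial mean as a covariate. Values that stayed uncalled but changed sign numbered 72, with the runs that left out 1 library included.

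E8.5 mesenchyme over neural epithelia (3 as reported) gave 0 after quantile normalization, with the compared groups alone, with the replicate block, with normal scores of ranks and without mesenchyme replicates 3 and 5 together, and 1 with ratios under 0.1 raised to 0.1, with genes at the floor left out and with the endothelial covariate. Leaving out genes at the floor removes Hbb-y and Hbb-bh1 by construction. E9.5 mesenchymal regions over epithelia (4) gave 2 without genes at the floor and 0 with the endothelial covariate. The E10.5 comparison (0) gave 1 after quantile normalization, with groups alone, with the replicate block and without the maxillary arch.

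For E9.5 over E8.5, neuroepithelium (3) gave 1 with the replicate block and without genes at the floor, and 0 with normal scores. Cranial mesenchyme (5) gave 0 with groups alone and with the replicate block, and 3 without genes at the floor, as did the mean of both tissues (5). The difference between tissues (1) gave 2 with array weights and with the endothelial covariate, and 0 with groups alone, the replicate block and normal scores.

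For E10.5 over E9.5, neuroepithelium (0) gave 1 after quantile normalization and with the raised floor. Nasal prominences (2) gave 1 after quantile normalization, with a variance trend and robust prior, with the conflicting E9.5 sample in either group, without the 4 samples of conflicting title, without 11 arrays whose log2 SD was over 0.85 and with the 2 similar arrays averaged. They gave 0 with groups alone, the replicate block, normal scores and the endothelial covariate. Maxillary arch (1) gave 2 with array weights and 0 in the same 4 settings. The mean of 4 tissue pairs (1) gave 3 with array weights, 2 with the raised floor and without mesenchyme replicates 3 and 5, and 0 with groups alone, normal scores, the widely spread arrays left out and the endothelial covariate.

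The F test among E8.5 regions (3) gave 0 after quantile normalization, with groups alone, the replicate block, the raised floor, normal scores, without mesenchyme replicates 3 and 5 and with the endothelial covariate, and 1 without genes at the floor. That at E9.5 (3) gave 5 after quantile normalization and with the raised floor, and 1 with the endothelial covariate. That at E10.5 (2) gave 5 with groups alone, 4 with the replicate block, and 1 with the conflicting sample as ectoderm, normal scores, widely spread arrays left out or the endothelial covariate.

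With 1 library left out, counts ran from 0 to 3 for E8.5 mesenchyme, 3 to 5 for E9.5 and 0 to 1 for E10.5 mesenchymal regions, 1 to 2 for the difference between tissues, 1 to 2 for nasal prominences, 0 to 2 for maxillary arch, 1 to 2 for the mean of 4 pairs, and 0 to 3, 3 to 4 and 1 to 2 for the F tests in stage order. The count was 3 throughout for neuroepithelium and 5 for cranial mesenchyme and for the mean of both from E8.5 to E9.5, and 0 for the remaining comparisons. Under the other settings, the count called over all genes ran from 5 to 1776 for cranial mesenchyme (305 as reported). It ran from 34 to 5804 for E9.5 mesenchymal regions (2833) and from 0 to 4913 for maxillary arch (1707). With 1 library left out, it ran from 212 to 520, 1724 to 4467 and 357 to 3713 in the same order. The causes were not tested. Whether replicate numbers pair the samples is not known, so what a call lost with the block means cannot be said. The endothelial covariate, the 2 similar arrays averaged, and the omission of the E10.5 maxillary arch, of globin-rich E8.5 mesenchyme or of E9.5 ectoderm replicates 3 and 7 were chosen after the data were seen. No level is held by a ratio, so how far signal stood over background is unknown.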

Other observations

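The E9.5 sample left out of every comparison, named mandibular arch by its title and source and epidermal ectoderm by its description and tissue label, had 4.11 for Alas2, 2.94 for Klf1, 1.03 for Hbb-bh1, 0.37 for Hbb-y, 0.15 for Hba-x and 0.39 for Slc4a1. In labelled E9.5 ectoderm Alas2 reached 0.30 at most and Klf1 0.48, while in labelled mandibular arch Alas2 reached 3.07 and Klf1 1.63.

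Libraries of E9.5 ectoderm differed among themselves in globin. Replicates 3 and 7 had -1.73 and -3.29 for Hba-x, -3.75 and -5.06 for Hbb-y and -6.07 and -6.25 for Hbb-bh1. The other 5 lay between -0.50 and 0.31 for Hba-x. In otic vesicle, replicate 2 had the lowest Hba-x (-2.68) and Hbb-y (-1.75), while replicate 6 had the lowest Hbb-bh1 (-2.19). Alas2 did not single out these libraries: it lay between -0.33 and 0.30 in all 7 ectoderm libraries.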
